A study of Rattus norvegicus with 4 samples.

Results

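Transcripts of the cells that wrap blood vessels, smooth muscle cells around arterioles and venules and pericytes around capillaries, were followed in rat skeletal muscle through 8 genes. These were Acta2, Actg2, Myh11, Tagln, Cnn1 and Mylk of the smooth muscle contractile apparatus, and Rgs5 and Pdgfrb of pericytes and other vessel wall cells. Members were found by matching the RefSeq accession of each array probe to 1 of these symbols, which gave 8 genes of the 26624 genes or accessions with a probe, and 11 of the 30015 probes used. Actg2, Myh11 and Mylk had 2 probes each and the other genes had 1. RNA came from skeletal muscle of male rats aged 15 weeks and was hybridised to 4 one-colour arrays. An exercised SPORTS rat gave 1 array, a sedentary SPORTS rat gave 1 array and wild type Wistar rats gave 2 arrays, where SPORTS is a mutant strain with hyperactivity on the Wistar background. The series' design text calls the wild type animals sedentary, while the labels of those arrays do not give an exercise state. The labels name neither the muscle, the mutation nor the kind of exercise, and do not say whether the 2 wild type arrays came from 2 animals. The p-values therefore measure only the spread between these arrays, which may be technical.

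In smooth muscle, calcium and calmodulin activate myosin light chain kinase, encoded by Mylk, which phosphorylates the light chains of the myosin whose heavy chain is encoded by Myh11. That myosin then pulls on actin filaments built from the products of Acta2 (the vascular alpha isoform) and Actg2 (the gamma isoform, best known from the gut and other hollow organs), while the actin-binding proteins transgelin (Tagln) and calponin (Cnn1) decorate the filaments. The genes of this apparatus are classic targets of serum response factor and its partner myocardin, which act through an A/T-rich element called the CArG box. Pdgfrb is the receptor through which endothelial PDGF-B recruits and holds pericytes, and Rgs5 shortens signalling from G protein-coupled receptors in the vessel wall.

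Windows at the gene starts of the 2 actin genes are shown because these genes passed the test of each SPORTS array against wild type. The windows run from 250 bases before to 50 bases after the RefSeq gene start in assembly GRCr8, both on the minus strand, and RefSeq windows were held for 5 of the 8 genes (Acta2, Actg2, Cnn1, Mylk and Rgs5). Capitals mark CArG-like elements, which are CArG boxes with at most 1 base of the A/T-rich core being G or C.
Acta2, chr1:241172454-241172753: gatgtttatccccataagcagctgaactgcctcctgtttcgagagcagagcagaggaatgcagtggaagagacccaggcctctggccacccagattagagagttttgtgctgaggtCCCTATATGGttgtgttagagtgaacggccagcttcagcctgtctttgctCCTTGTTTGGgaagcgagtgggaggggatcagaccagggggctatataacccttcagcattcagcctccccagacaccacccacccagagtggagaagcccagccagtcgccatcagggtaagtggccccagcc
Actg2, chr4:117593990-117594289: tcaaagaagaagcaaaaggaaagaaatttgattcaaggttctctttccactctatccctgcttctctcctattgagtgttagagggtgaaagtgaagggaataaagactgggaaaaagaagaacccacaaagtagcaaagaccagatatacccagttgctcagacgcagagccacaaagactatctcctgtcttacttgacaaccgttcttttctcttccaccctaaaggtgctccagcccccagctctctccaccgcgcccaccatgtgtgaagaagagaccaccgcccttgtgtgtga
The Acta2 window held 2 CArG-like elements, starting at positions -134 and -84 from the gene start, and neither was an exact CArG box. No element of either kind was found in the other 4 windows. Whether the RefSeq start of Actg2 is where its transcription begins in muscle was not tested, so the absence describes this window only. Of 33469 rat promoter windows of the same length, 9.42% held a CArG-like element and 1.64% an exact one. The motif CATTCC, the binding motif of TEAD factors, searched on both strands and not overlapping the CArG-like elements, was found once each in the Acta2 and Mylk windows and in 14.19% of all windows. A match describes the letters of the window only.

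Levels are log2 processed signals from which each array's own 75th percentile was taken, so that 0 is the level of a probe brighter than 75% of the others. By the flag of the scanner software, 46.0% of the probes were well above background on the exercised SPORTS array, 50.3% on the sedentary SPORTS array, and 48.7% and 48.9% on the wild type arrays. No probe used was saturated, and the 4 arrays shared 1 slide. The array of the exercised SPORTS rat was unlike the others, with 21.9% of 14769 tested probes at least 2-fold from the sedentary SPORTS array, against 1.18% between the wild type arrays. The labelled tissue was borne out by its markers, since all 9 skeletal muscle fibre genes measured were well above background on all 4 arrays. Of the 11 probes, 9 were well above background on every array, and 10 passed the requirement of at least 2 arrays and were tested. The exception was the probe of Cnn1. In whole muscle, fewer cells of a type and less RNA per cell cannot be told apart.

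Both actin genes and Tagln were higher on both SPORTS arrays than on both wild type arrays. None of the 10 probes tested passed when the 2 SPORTS arrays were set against the 2 wild type arrays. Actg2 was about 2 to 3 times as high, and Acta2 and Tagln less than 2 times. For Myh11 and Mylk the genotypes overlapped, and Rgs5 and Pdgfrb lay slightly below wild type. Of the 10 probes tested, 4 lay above both wild type arrays on both SPORTS arrays (Acta2, Tagln and both probes of Actg2), 2 lay below (Rgs5 and Pdgfrb) and 4 overlapped. Over all probes tested, 21.7% lay above and 22.3% below in this way, so a place outside the wild type pair is common here. At least 2-fold above both wild type arrays were both Actg2 probes, against 0.664% of all probes, and none lay 2-fold below, against 1.28%.

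**Figure D1:**
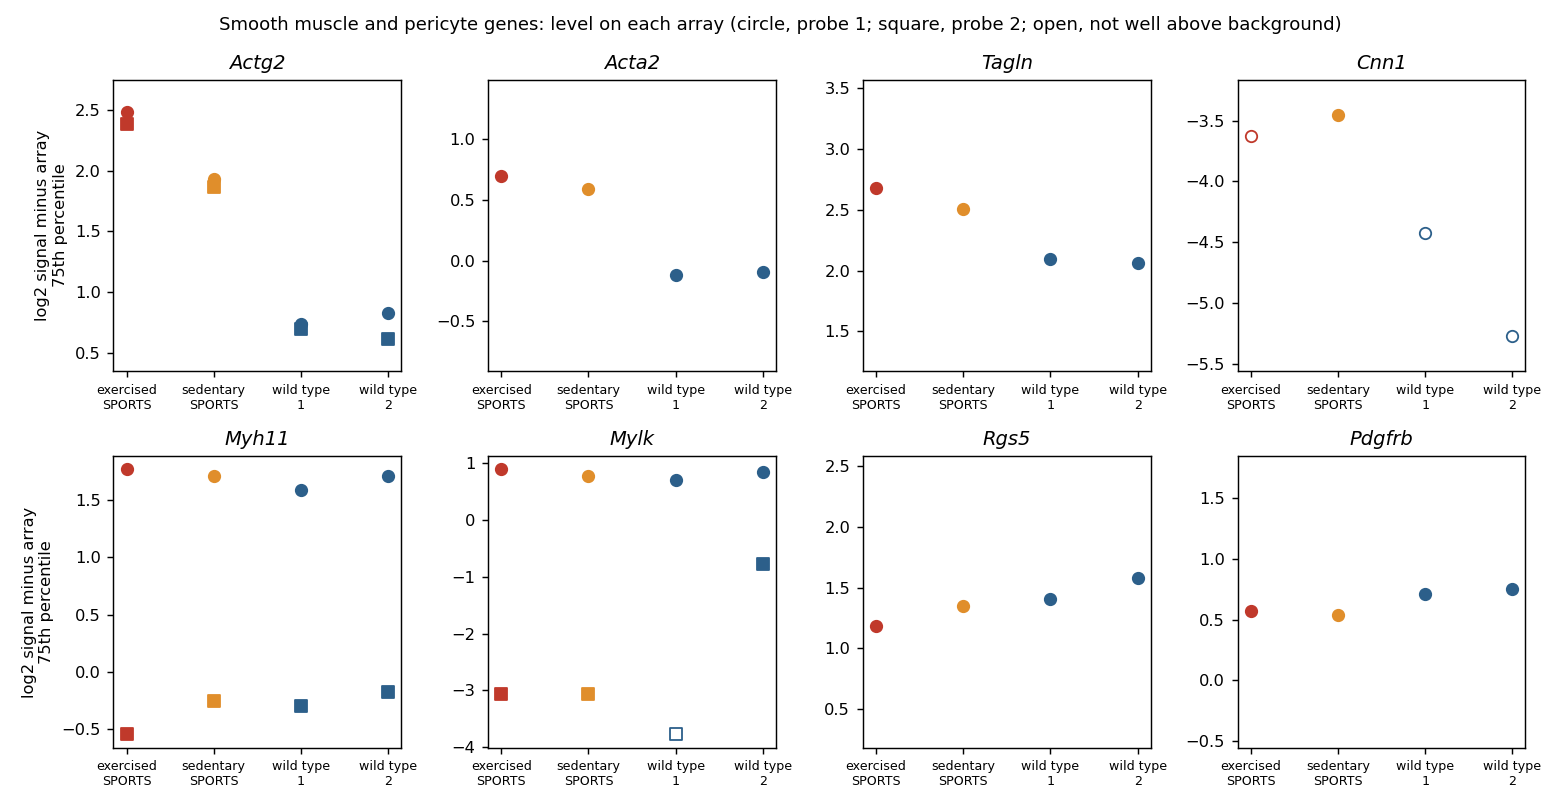
Level of each gene (log2 processed signal relative to the 75th percentile of its array, vertical axes with separate ranges) on the exercised SPORTS, sedentary SPORTS and 2 wild type arrays. Circles are probe 1, squares probe 2, and open symbols are values not well above background. Actg2, Acta2 and Tagln sit higher on both SPORTS arrays than on both wild type arrays, and the second Mylk probe is high on wild type array 2 alone.

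Among the actins, the first probe of Actg2 read 2.48 on the exercised array and 1.93 on the sedentary SPORTS array, against 0.73 and 0.83 on the wild type arrays. The second probe read 2.38 on the exercised array and 1.86 on the sedentary SPORTS array, against 0.70 and 0.61 on the wild type arrays. Every SPORTS value lay above every wild type value by both probes, with at least 1.1 on the log2 scale between the nearest arrays. The difference between SPORTS and wild type was 1.42 ± 0.25 and 1.47 ± 0.24 on the log2 scale (standard errors, n = 2 arrays per genotype), or 2.68-fold and 2.77-fold. Neither passed in the fit of 2 arrays against 2 (adjusted p = 0.458 and 0.445, limma). These differences exceeded those of 98.9% and 99.0% of the probes tested. The spread in the fit of 2 arrays against 2 includes the gap between the exercised and sedentary SPORTS arrays.

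Against the wild type pair, Actg2 rose on the exercised SPORTS array by 1.70 ± 0.08 (3.25-fold) and 1.73 ± 0.08 (3.31-fold) by its 2 probes (adjusted p = 0.00469 and 0.00452, limma). It rose on the sedentary SPORTS array by 1.15 ± 0.08 (2.22-fold) and 1.21 ± 0.08 (2.31-fold) (adjusted p = 0.0372 and 0.0368). These p-values come from a fit with 3 groups in which the lone SPORTS arrays are assumed to vary like the wild type pair, and the spread has 1 residual degree of freedom. The 2 probes differed from each other by at most 0.06 in these comparisons. Both probes read the same RNA, so they are not replicates of the animal.

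Acta2, the most widely used smooth muscle marker, read 0.69 on the exercised array and 0.59 on the sedentary SPORTS array, against -0.12 and -0.09 on the wild type arrays. The SPORTS arrays were close to each other and the wild type arrays closer still. SPORTS exceeded wild type by 0.75 ± 0.13, or 1.68-fold (adjusted p = 0.463, limma, 2 arrays against 2). Acta2 rose by 0.80 ± 0.06 on the exercised array (adjusted p = 0.00813) and by 0.70 ± 0.06 on the sedentary array (adjusted p = 0.0444). With dim probes kept in the fit, neither Acta2 (adjusted p = 0.106) nor Actg2 (0.0859 and 0.0837) passed on the sedentary array.

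The other actin genes, which code for closely related proteins, went other ways. The skeletal muscle actin gene Acta1 read 8.43 on the exercised array and 7.99 on the sedentary SPORTS array, against 8.08 and 8.12 on the wild type arrays. The cardiac and fetal muscle actin gene Actc1 read 2.54 and 5.74 on the exercised and sedentary SPORTS arrays, against 4.84 and 4.67 on the wild type arrays. The cytoplasmic actin gene Actb read 3.70 and 4.75 on the exercised and sedentary SPORTS arrays, against 4.20 and 4.06 on the wild type arrays. The SPORTS arrays thus lay on opposite sides of wild type for these 3 genes, unlike for Acta2 and Actg2. Of 16 relatives tested from all the families (actins, myosins, calponins, kinases and others), 1 rose and 3 fell on the sedentary array, against 3.4% and 3.83% of all genes with a symbol. On the exercised array 2 rose and 8 fell, against 28.1% and 28.9%. Probe sequences were not used here, and the part of signal shared between actin transcripts was not tested.

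Of the actin-binding proteins, transgelin was also higher on both SPORTS arrays. Tagln read 2.68 on the exercised array and 2.51 on the sedentary SPORTS array, against 2.10 and 2.06 on the wild type arrays. The groups did not overlap. SPORTS exceeded wild type by 0.52 ± 0.14, or 1.43-fold (adjusted p = 0.618, limma, 2 arrays against 2). Tagln rose by 0.60 ± 0.07 on the exercised array (adjusted p = 0.0127), and on the sedentary array the difference of 0.43 ± 0.07 missed the threshold (adjusted p = 0.0614).

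Cnn1, a late marker of differentiated smooth muscle, was dim throughout. The probe read -3.63 on the exercised array and -3.46 on the sedentary SPORTS array, against -4.43 and -5.27 on the wild type arrays. It was well above background on the sedentary SPORTS array alone. There it was at least 1.12-fold higher than in wild type, a bound against the lowest signal well above background on each wild type array, and it was not tested.

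The myosin heavy chain gene Myh11 differed little between the arrays. Its first probe read 1.77 and 1.71 on the exercised and sedentary SPORTS arrays, against 1.59 and 1.71 on the wild type arrays. The second read -0.55 and -0.26 on the exercised and sedentary SPORTS arrays, against -0.30 and -0.18 on the wild type arrays. SPORTS and wild type overlapped by both probes. The probes parted on the exercised array, where the difference from wild type was 0.12 ± 0.09 by the first (adjusted p = 0.334, limma) and -0.31 ± 0.09 by the second (adjusted p = 0.0765). With a variance trend in the fit the second probe passed as lower (adjusted p = 0.0439). On the sedentary array the differences were 0.06 ± 0.09 and -0.02 ± 0.09.

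Mylk also had probes that parted. The first read 0.89 and 0.78 on the exercised and sedentary SPORTS arrays, against 0.71 and 0.84 on the wild type arrays, so the genotypes overlapped. The second read -3.07 and -3.06 on the exercised and sedentary SPORTS arrays, against -3.78 and -0.78 on the wild type arrays. It was thus 7.98-fold higher on wild type array 2 than on wild type array 1, where it was not well above background. That gap was larger than between the wild type arrays for 99.8% of the probes tested. The difference from wild type by this probe, -0.79 ± 1.54 on the exercised array and -0.78 ± 1.54 on the sedentary array, was smaller than its standard error. By the first probe the differences were 0.12 ± 0.09 and 0.003 ± 0.090. Mylk2, the kinase gene of skeletal muscle fibres, read 6.99 and 4.03 on the exercised and sedentary SPORTS arrays, against 4.73 and 4.70 on the wild type arrays.

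The pericyte genes lay slightly below wild type on both SPORTS arrays and did not pass. Rgs5 read 1.18 on the exercised array and 1.35 on the sedentary SPORTS array, against 1.41 and 1.58 on the wild type arrays. The nearest arrays were 0.06 apart, less than the 0.17 between the wild type arrays. Its difference from wild type was -0.31 ± 0.11 on the exercised array and -0.15 ± 0.11 on the sedentary array (adjusted p = 0.105 and 0.406, limma). Pdgfrb read 0.57 and 0.54 on the exercised and sedentary SPORTS arrays, against 0.71 and 0.76 on the wild type arrays. Its differences were -0.16 ± 0.07 on the exercised array and -0.20 ± 0.07 on the sedentary array (adjusted p = 0.143 and 0.157). With scaling by the median of each array, which moves all exercised values up by 0.23 against wild type, Pdgfrb on the exercised array turned to 0.07.

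**Figure D2:**
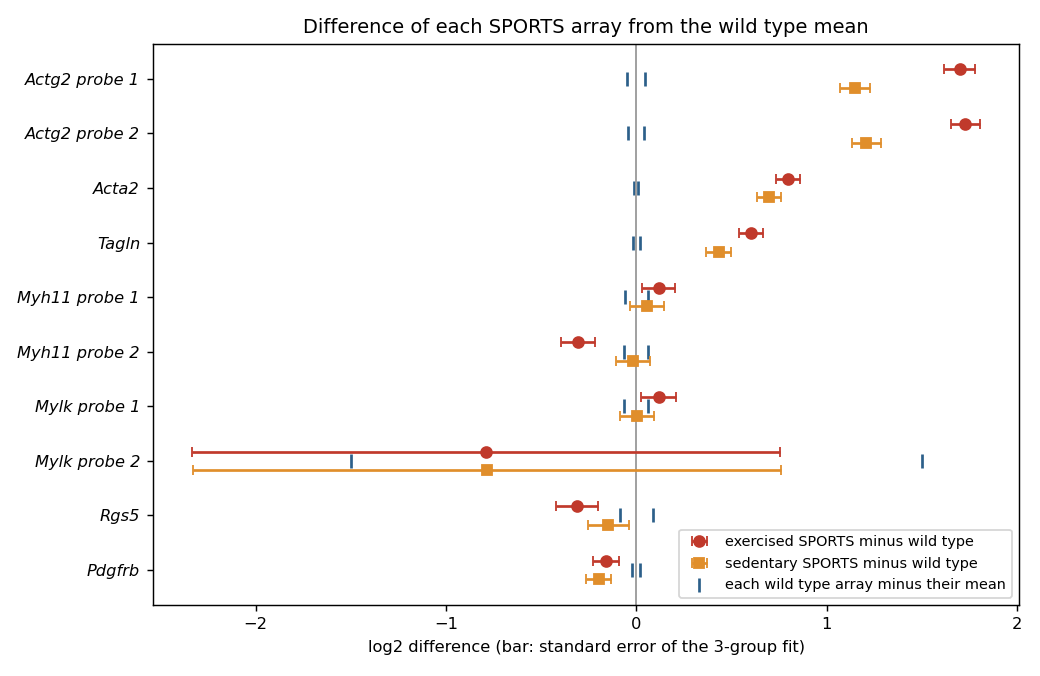
Difference of the exercised (red circles) and sedentary (orange squares) SPORTS arrays from the wild type mean, in log2 units, for the 10 probes tested. Bars are standard errors of the 3-group fit, and blue ticks are the wild type arrays around their own mean. Actg2, Acta2 and Tagln lie to the right of the wild type ticks on both arrays, and the second Mylk probe has a wild type spread wider than its difference.

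The comparisons can be read across the 8 genes as counts. In SPORTS against wild type, 0 of the 10 probes passed in limma, as did 0.0% of all 14769 probes tested, and 4 of the 10 had an unadjusted p under 0.05, against 7.55% of all probes. In sedentary SPORTS against wild type, 3 of the 10 probes rose (both of Actg2 and that of Acta2), against 3.2% of all probes, and none fell, against 3.81%. In exercised SPORTS against wild type, 4 of the 10 probes rose (the same 3 and that of Tagln), against 27.4% of all probes, and none fell, against 26.1%. In either direction 53.5% of all probes passed there and 7.0% on the sedentary array. The 2 SPORTS comparisons share the wild type arrays, and 2 of the called probes are of 1 gene. The median difference over the 10 probes was 0.12 on the exercised and 0.03 on the sedentary array, beside 0.0047 and -0.0094 over all probes tested.

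Between the SPORTS arrays, where exercise is the labelled difference, none of the 10 probes was 2-fold apart, against 21.9% of all probes (9.14% higher and 12.7% lower on the exercised array). Their differences, exercised minus sedentary, ran from -0.29 for the second Myh11 probe to 0.55 for the first Actg2 probe, with a median of 0.08. The other Actg2 probe differed by 0.52, while Acta2 differed by 0.10, Tagln by 0.17, Rgs5 by -0.17 and Pdgfrb by 0.04. With 1 array per condition these differences have no replicate check. Exercise, the animal and the muscle or fibres sampled cannot be told apart in this comparison. Scaling by the median moves all of them up by about 0.20, as the median of all probes does, and Rgs5 then turned to 0.0300. In the same pair of arrays all 12 fast fibre genes tested were at least 2-fold higher and 10 of 11 slow fibre genes at least 2-fold lower on the exercised array. Actg2, Acta2 and Tagln lay above both wild type arrays on both SPORTS arrays. Of the slow fibre genes, 6 of 11 lay below both wild type arrays on both SPORTS arrays, against 22.3% of all genes. Of the 12 fast fibre genes 1 did so.

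**Figure D3:**
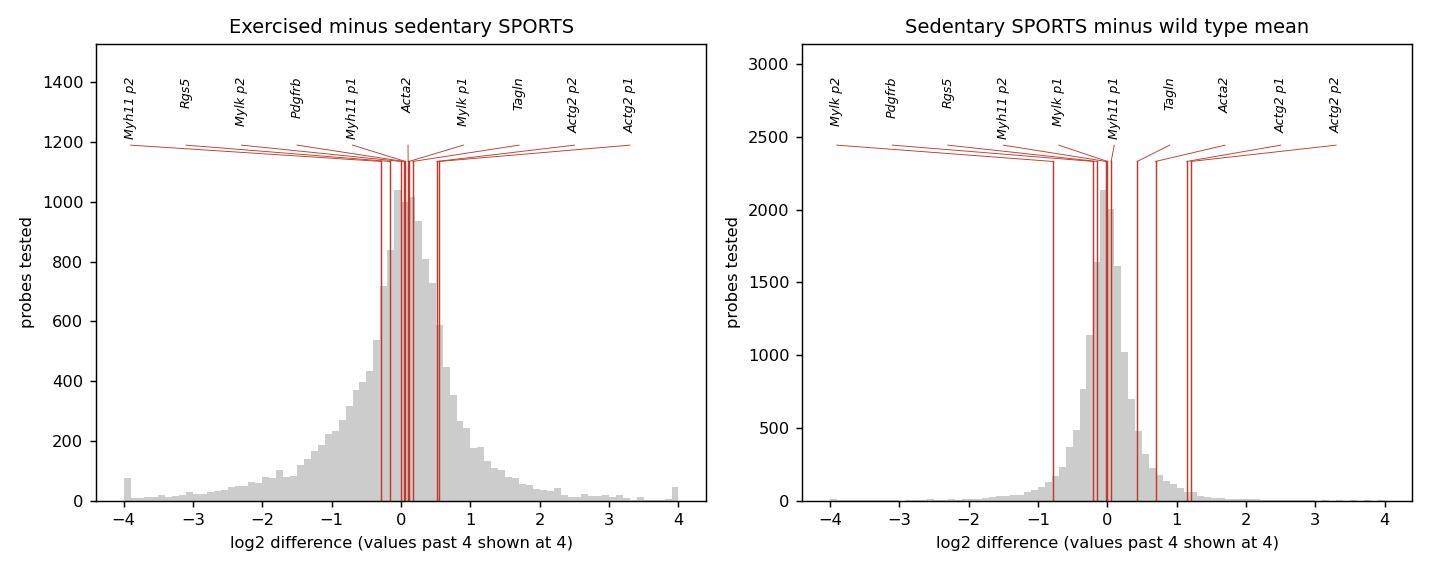
Differences in log2 units of all 14769 probes tested (grey histograms), exercised minus sedentary SPORTS on the left and sedentary SPORTS minus the wild type mean on the right, with red lines for the 10 smooth muscle and pericyte probes. On the left all 10 lie between -0.29 and 0.55, and on the right both Actg2 probes lie beyond 1.

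The rest of the contractile apparatus was covered by a list of 29 genes, 24 of them tested, with the brightest probe standing for a gene. On the sedentary SPORTS array none rose and 1 fell, against 3.4% and 3.83% of all genes with a symbol. The 1 was the tropomyosin gene Tpm1, shared with skeletal fibres, which fell by 3.05. On the exercised array 7 rose and 10 fell, against 28.1% and 28.9% of all genes. The list medians were -0.06 on the exercised and 0.18 on the sedentary array. Between the SPORTS arrays 5 were at least 2-fold higher on the exercised array, against 7.76% of all genes, among them Tpm1 by 4.32, Mustn1 by 2.15 and the PDZ and LIM gene Pdlim7 by 1.44. Lower were 7, against 14.7%, among them the smoothelin gene Smtn, of contractile smooth muscle, at -1.48. Genes higher or lower on both SPORTS arrays than on both wild type arrays numbered 7 and 4, against 23.1% and 22.3% of all genes. Tpm1, Mustn1 and Pdlim7 read 7.91, 7.18 and 5.13 on the exercised array and 3.59, 5.03 and 3.70 on the sedentary SPORTS array. Each of these values lay above every value of the 8 genes. Des is also on the list of skeletal muscle fibre genes. The part of skeletal fibres in the values of this contractile list was not tested.

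Genes of this contractile list went both ways on the exercised array, where the list median was -0.06. Smtn differed there from wild type by -0.95, and Itga8, also named after its values were seen, by -1.33. Singled out after its values were seen, Ppp1r14a, whose product CPI-17 inhibits myosin phosphatase in smooth muscle, had the order of arrays seen for Acta2. It read 0.73 on the exercised array and 0.56 on the sedentary SPORTS array, against -0.08 and 0.07 on the wild type arrays. It rose on the exercised array by 0.73 ± 0.10 (adjusted p = 0.0186, limma), and the 0.56 ± 0.10 on the sedentary array missed the threshold (adjusted p = 0.0741). Myl9, the smooth muscle regulatory light chain gene, chosen likewise, differed by 0.45 ± 0.10 on the exercised array (adjusted p = 0.0474) and by 0.37 ± 0.10 on the sedentary array (adjusted p = 0.122).

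Other pericyte genes went in both directions. Of 24 listed, 19 were tested, and 1 rose and 1 fell on the sedentary SPORTS array, against 3.4% and 3.83% of all genes. The gene that rose, Higd1b, a marker of pericytes, read -0.70 and -0.43 on the exercised and sedentary SPORTS arrays, against -1.35 and -1.25 on the wild type arrays (0.87 ± 0.08 on the sedentary array, adjusted p = 0.0448, limma). The gene that fell, Angpt1, which encodes a ligand that steadies endothelium, read -2.67 and -1.44 on the exercised and sedentary SPORTS arrays, against -0.38 and -0.41 on the wild type arrays (adjusted p = 0.0367). Of the 19, 5 rose and 7 fell on the exercised array, against 28.1% and 28.9% of all genes. The list medians were -0.23 on the exercised and -0.06 on the sedentary array. Between the SPORTS arrays 1 of the 19, Notch3, was at least 2-fold higher on the exercised array (1.08), against 7.76% of all genes. Lower were 5, against 14.7%. Among them were the endosialin gene Cd248 at -1.82, the nestin gene Nes at -1.43 and the aminopeptidase gene Anpep at -1.20. Cd248 is also among the fibroblast markers given below. Higd1b and Notch3 were named here to complete a count, after their values were seen.

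Among regulators of the smooth muscle programme, 10 of 20 were tested, and on the sedentary array 2 rose and 1 fell, against 3.4% and 3.83% of all genes. Klf4, a factor that represses smooth muscle genes, rose by 1.33 and Klf2, a flow-responsive factor of endothelium, by 1.02 (adjusted p = 0.0316 and 0.0367, limma). The homeobox gene Prrx1, named to complete the count, fell by 0.74. Klf4 fell by 0.60 and Klf2 by 1.27 on the exercised array (adjusted p = 0.0120 and 0.00489), so both moved opposite ways on the SPORTS arrays. Srf, which encodes the factor that binds CArG boxes, was singled out after its values were seen. It read 3.39 on the exercised array and 3.43 on the sedentary SPORTS array, against 3.07 and 3.05 on the wild type arrays. It rose by 0.33 ± 0.06 on the exercised array (adjusted p = 0.0345), and its 0.37 ± 0.06 on the sedentary array missed the threshold (adjusted p = 0.0702). Myocd, the gene of its partner myocardin, was named after its values were seen and was not tested. It was well above background on the sedentary SPORTS array alone, where it lay above both wild type arrays. On the exercised array it read -5.59, below the -4.58 and -3.70 on the wild type arrays, so the genotypes overlapped. Fhl2, a cofactor gene, differed between exercised and sedentary SPORTS by -3.82. The Notch target Hey2 was not well above background on the exercised array and was at least 1.89-fold higher on the sedentary one.

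Of 27 genes for signals between endothelium and mural cells 18 were tested, and on the sedentary SPORTS array none rose and Angpt1 fell, against 3.4% and 3.83% of all genes. On the exercised array 3 rose and 6 fell, against 28.1% and 28.9%. Between the SPORTS arrays the growth factor gene Hbegf differed by 1.21 and the mural cell receptor gene Notch3 by 1.08. Tgfb1 was not well above background on the exercised array and was at least 2.28-fold higher on the sedentary one. The probe of Pdgfb, the ligand of the Pdgfrb receptor, was well above background on wild type array 1 alone.

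Of 40 genes of vascular tone 25 were tested, and on the sedentary array Gja5, a connexin gene of arterial endothelium named to complete the count, rose by 0.86. Rgs2, a relative of Rgs5 that damps vasoconstrictor signals, fell there by 1.03 and fell by 2.34 on the exercised array (adjusted p = 0.0395 and 0.00421, limma). Rgs4, another relative, differed by 0.26 on the exercised and -0.03 on the sedentary array without passing. On the sedentary array 1 rose and 1 fell, against 3.4% and 3.83% of all genes, while 4 rose and 11 fell on the exercised array, against 28.1% and 28.9%. Between exercised and sedentary SPORTS the potassium channel gene Kcnma1 differed by -2.50. The cGMP-dependent kinase gene Prkg1 and the channel gene Trpc1 were not well above background on the exercised array, and were at least 2.84-fold and 7.26-fold higher on the sedentary one.

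Markers of other cells were set beside these values. Of 18 endothelial genes tested, 9 lay above both wild type arrays on both SPORTS arrays and none below, against 23.1% and 22.3% of all genes. The rest overlapped. Between the SPORTS arrays Cldn5 alone was at least 2-fold higher on the exercised array, against 7.76% of all genes. Lower were 2, Cdh5 and Emcn, against 14.7%. On the exercised array Cldn5 differed from wild type by 1.52, Cdh5 by -2.09 and Emcn by -0.81. The list medians were 0.09 on the exercised and 0.17 on the sedentary array. The summed level of the endothelial list, in units of the array's 75th percentile, was 41.9 on the exercised array and 42.2 on the sedentary SPORTS array, against 37.0 and 40.9 on the wild type arrays. The same sum over the 8 smooth muscle and pericyte genes, 1 probe a gene, was 22.7 and 20.1 on the exercised and sedentary SPORTS arrays, against 15.9 and 16.7 on the wild type arrays. Tagln and Actg2 were the brightest of the 8 on the exercised array (2.68 and 2.48) and weigh most in its sum. Rgs5 and Pdgfrb, also in the sum, lay below wild type on both SPORTS arrays. Fibroblast markers had medians of -1.73 on the exercised and -0.13 on the sedentary array, with 17 of 17 tested falling on the exercised array, against 28.9% of all genes. Their summed level was 131 on the exercised array and 333 on the sedentary SPORTS array, against 415 and 406 on the wild type arrays. Macrophage markers had medians of -1.32 on the exercised and 1.01 on the sedentary array, and summed levels of 24.5 and 112 on the exercised and sedentary SPORTS arrays, against 70.8 and 48.5 on the wild type arrays. The part of these cells in the smooth muscle values was not tested.

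**Figure D4:**
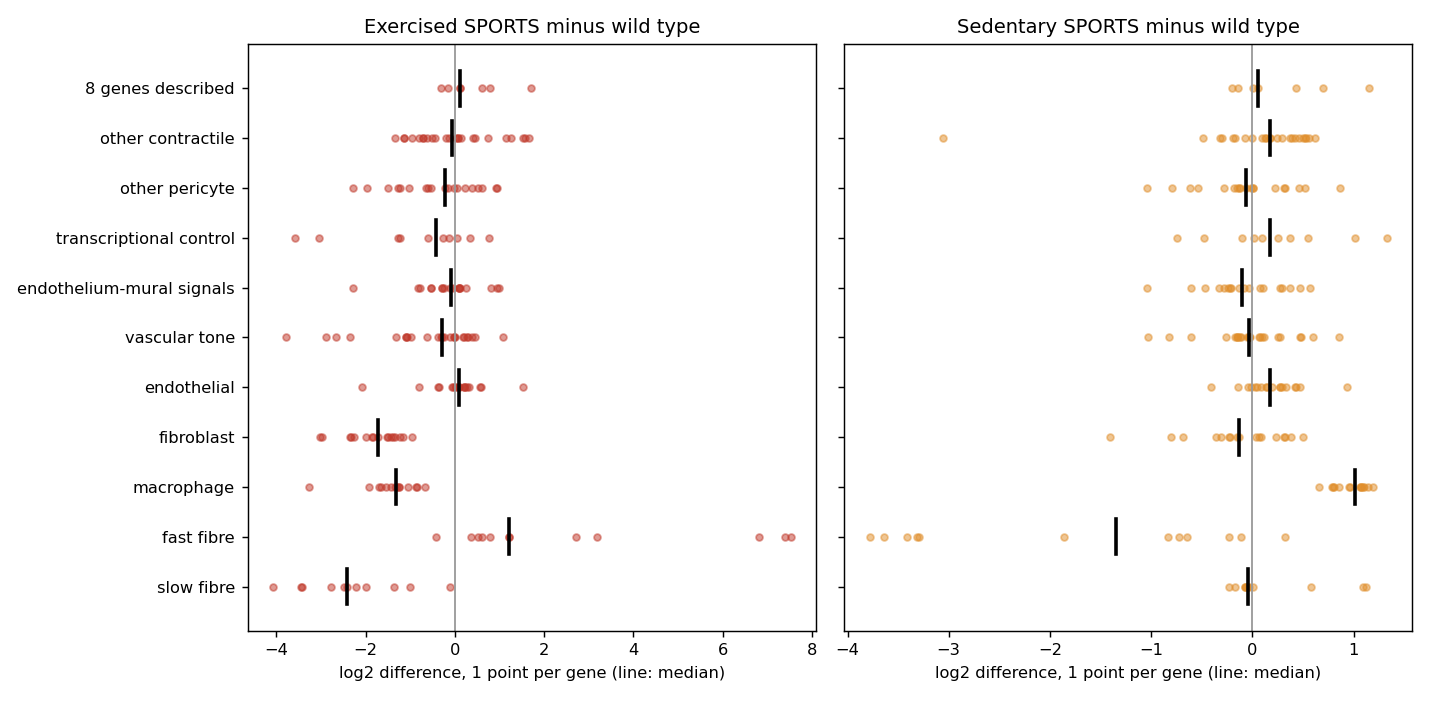
Differences from wild type in log2 units on the exercised (left) and sedentary (right) SPORTS arrays, with 1 point per tested gene and black lines for list medians. The smooth muscle and pericyte genes have medians of 0.12 and 0.06, fibroblast genes lie at -1.73 on the left, and fast fibre genes have medians of 1.22 on the left and -1.35 on the right.

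Likeness was measured as the distance over the 4 arrays between a gene's centred log2 profile and the mean centred profile of the 7 members tested, which was 0.24 on the exercised array and 0.11 on the sedentary SPORTS array, against -0.21 and -0.13 on the wild type arrays. Of 8469 other genes, the nearest were Ubl5 at a distance of 0.0262, Foxn3, Ppp2r3a and Smarca5, and Rnaset2 at 0.0339. A profile over 4 arrays gives little to tell such profiles apart.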

How the data were processed

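Gene expression in skeletal muscle was measured on 4 one-colour Cy3 arrays. Per the file headers, the scanner software was Agilent Feature Extraction 10.7.1.1, and the deposited intensity (processed signal) has background and spatial trend removed array by array. Arrays had not been scaled to each other. The authors' deposited value table holds log2 values. Against the scanner files its differences gave r of at least 0.9999 over 30015 probes, and each row has a median of 0, so its scale, centring and direction are known; column medians were 0.17 (exercised), -0.15 (sedentary), 0.02 and -0.02 (wild type). It served as an alternative.

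Control and outlier spots were left out (352 of 30367 probes dropped as outliers), and spots of a probe averaged. Values are log2 signal minus the array's 75th percentile. Accessions were matched to the GRCr8 RefSeq table, naming 59.4% of probes. Probes well above background on at least 2 arrays were tested (14769) with limma 3.58.1 in R 4.3.3, two-sided, with Benjamini-Hochberg adjustment, called under 0.05. SPORTS against wild type was 2 arrays against 2, and a 3-group fit gave each SPORTS array against wild type. Fits ran over probes because every probe of a gene is shown. ± is the fit's standard error. The number of arrays limits the precision. The fit was run on simulated data in which all 4 arrays varied alike and both SPORTS arrays changed by the same amount. Such data cannot check whether a lone SPORTS array varies like the wild type pair. The members, lists and tests were chosen with earlier results of these data known. Named from other lists were at most 4 genes each, those with the largest difference between the SPORTS arrays among genes at least 2-fold apart, then the largest called on the sedentary array; names outside this rule are marked.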

Additional observations from a re-analysis of the deposited data

How the results depend on the processing

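No paired analysis was possible because each SPORTS condition has 1 array and the groups share fewer than 2 replicate numbers. With 1 or 2 arrays per group the spread in the 3-group fit rests on the wild type pair. In the fit of 2 arrays against 2 it also includes the gap between the SPORTS arrays. Dim probes (Cnn1, the second Mylk probe) give little beyond bounds.

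In SPORTS against wild type, no smooth muscle or pericyte probe passed under the other settings, but 3 passed without the exercised SPORTS array and 4 without the sedentary one, so this range is 0 to 4 over arrays left out. The count over all probes, 0, was 1 with quantile normalization and 1 with normexp, 1034 without the exercised and 7905 without the sedentary SPORTS array, where the fit becomes that of 1 SPORTS array. In sedentary SPORTS against wild type, the 3 called probes became 0 with no filter on dim probes, where adjusted p was 0.106 for Acta2 and 0.0859 and 0.0837 for Actg2. The count over all probes, 1034, was then 0, and 2393 with normexp, 2420 with probes well above background on all 4 arrays, 1913 with a floor on dim values and 3204 with a variance trend. Tagln passed there with normexp (adjusted p = 0.0324), all 4 arrays above background (0.0357) and the trend (0.0189). With the trend the second Myh11 probe passed as lower on the exercised array (adjusted p = 0.0439), which made 5 called probes there. With no filter, 5472 probes were 2-fold apart between the SPORTS arrays, against 3230.

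The median difference over the 10 probes in SPORTS against wild type, 0.07, was 0.20 with median scaling, which moves the median of all probes by 0.13, and ranged from 0.0120 to 0.32 with an array left out. On the sedentary array it was 0.03, and -0.0319 to 0.26 with 1 wild type array left out. On the exercised array it was 0.12, 0.0387 with quantile normalization, 0.34 with median scaling and 0.0559 to 0.38 with 1 wild type array left out. Between the SPORTS arrays it was 0.08, and 0.28 with median scaling. The high values come from leaving out wild type array 2, the array on which the second Mylk probe is high.

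Single-probe values changed sign in 17 cases, each a probe in 1 comparison under 1 setting, 7 of them with a wild type array left out. None had passed a test before the change, and none passed after it where a test could be run. No test was possible between the SPORTS arrays, nor in the 3-group fits with a wild type array left out. In SPORTS against wild type, the first Mylk probe turned to -0.0037 without wild type array 1, and the second ranged from -2.29 to 0.71 over arrays left out, turning without array 2. On the sedentary array, the second Myh11 probe turned to 0.0126 with median scaling and 0.0659 with normexp, and the first Mylk probe to -0.0309 with quantile normalization and -0.0001 with the authors' value table. With 1 wild type array left out, the first Myh11 probe turned there to -0.0033, the second to 0.0443, the first Mylk probe to -0.0605 and the second to 0.71. On the exercised array, Pdgfrb turned to 0.0663 with median scaling and the second Mylk probe to 0.71 without wild type array 2. Between the SPORTS arrays, Rgs5 turned to 0.0300 with median scaling, the first Myh11 probe to -0.0136 with quantile normalization, and the second Mylk probe to 0.0596 to 0.19 with normexp, quantile normalization and median scaling. Actg2 and Acta2 stayed higher under every setting run, and in the 3-group fits that allow a test past the threshold on both SPORTS arrays except on the sedentary array with no filter.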
